A study of Mus musculus with 109 samples.

Results

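The H2 region is the mouse major histocompatibility complex, taken here as chromosome 17 from 33.5 to 38 Mb in the mm9 build. Its members are the HindIII sites of the contact table whose positions fall between those bounds. There were 1110 such sites, of 28576 on chromosome 17 and 823352 in the whole table. The region spans 4.5 Mb and overlaps 221 protein-coding genes. No fixed window of its length elsewhere in the genome held more protein-coding genes.

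4C-seq asks which parts of the genome lie near one chosen place, the bait, in crosslinked nuclei. The study applied it to 12 baits in C127 cells, a mouse mammary tumour line. Per the labels, cultures were blocked in mitosis with nocodazole and released for various times, released further into G2, or held in G0 by serum starvation. The sampling times are not used here, because the titles of the libraries used for chromosome 17 go against their own reads. The spread among the libraries of a bait therefore includes any difference between stages of the cell cycle. All libraries came from this single line. C127 was derived from an RIII mouse, whereas mm9 is the C57BL/6J genome, so the sites are those of another strain. The H2 haplotype of the cells was not examined.

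The major histocompatibility complex encodes the proteins that show peptides to T cells. Class I molecules present peptides from inside the cell, class II molecules present peptides taken up by specialised cells, and class III holds complement, cytokine and heat shock genes between them. Many class I genes arose by repeated duplication, so their sequences resemble each other closely. A cluster of odorant receptor genes adjoins the class I genes in mammals. The region also packs genes and GC-rich sequence densely, a setting usually found in active, early replicating chromatin.

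Anchor genes divided the region into subregions. The proximal flank ran from the start of the region to 34012610, just before Kifc1, and held 140 sites and 13 protein-coding genes. The K and class II subregion began at Kifc1 (34012611) and ended before Notch4, a Notch receptor gene that starts at 34701213. It held 150 sites and 39 genes. Class III began at Notch4 and ended before H2-D1, a classical class I gene that starts at 35399675. It held 156 sites and 62 genes. The class I D, Q, T and M subregion followed, with 455 sites and 70 genes, up to Gabbr1, a GABA-B receptor gene that starts at 37182911. The olfactory receptor part, from Gabbr1 to 38000000, held 209 sites and 37 genes, 33 of them named as olfactory receptors. GC content was highest in class III, at 51.0%, and lowest in the olfactory receptor part, at 39.6%. It was 45.6% over the region and 42.7% over chromosome 17.

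The region was viewed from 2 baits on chromosome 17. The primer of the Kif6 bait ends at 49968677 on the plus strand, in an intron of Kif6, a kinesin motor gene, with 45.8% GC in the surrounding 500 kb. It lies 16.5 Mb from the start of the region. The primer of the distal bait ends at 76305564 on the plus strand, between genes and 354258 bp from Fam98a, with 39.1% GC around it. It lies 42.8 Mb from the start of the region. The bait primers, as the labels give them, are shown because their last letters (capitals) enter the HindIII site at which every captured fragment was joined.
Kif6 bait: tgaaacacagccatcaAAGC
distal bait: agatggcaaaccacattAAGC

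Each chromosome 17 bait was represented by 4 libraries, chosen from 39 columns as those with most reads within 100 kb of it. The fewest such reads in a chosen library were 15245 for the Kif6 bait and 12685 for the distal bait. The most in a column not chosen were 677 and 1053. All 8 chosen libraries are titled as chromosome 16 baits (Ch16.B30, Ch16.B41 or Ch16.B46). The bait of each therefore rests on where its reads lie and not on its title, and every direction below depends on that choice. They are numbered 1 to 4 within a bait in the order of the table. The 6 chromosome 8 baits, called B87, B26, B118, B44, B7 and B53 after their titles, had 10 or 11 libraries each, 64 in all.

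Depth differed widely. The chromosome 17 libraries held 185000 to 1598251 reads, and the chromosome 8 columns held 266006 to 8826711. A site was called captured when it had at least 1 read. Between 37.9% and 49.1% of the sites over 2 Mb from the bait were captured on chromosome 17, so repeated capture of the same site was common. Libraries of 1 chromosome 17 bait shared 2.03% to 8.41% of the captured sites of the smaller library on other chromosomes. Of 310 pairs of chromosome 8 libraries of 1 bait, 12 shared over 50% and up to 92.9%, against a median of 7.79%. Such libraries are not independent, and the mean log2 ratio of the region in trans was 0.45 without 9 of them and 0.46 with all.

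Among the 1110 sites, 24 (2.16%) were captured in all 8 chromosome 17 libraries. A further 396 sites, or 35.7%, were captured in none of the 8, against 28.3% on the whole chromosome, which includes the surroundings of the baits. Of the 24, the 8 captured in the largest number of chromosome 8 libraries were spread over 3 subregions, with none in class III. The first lay in an intron of Btnl3, a butyrophilin-like gene, at chr17:34521559, and was captured in 17 of the 64 chromosome 8 libraries. Another 4 fell between genes, near Trim40 (37018285), Trim39 (36395720), Olfr92 (37259595) and Olfr101 (37436259). Of the rest, 2 lay in untranslated exon sequence of Zfp57, an imprinting regulator (37141339), and Gabbr1 (37186289), and 1 lay in a retained-intron exon of Trim26 (36991019). The sequences of the intronic and intergenic sites in mm9, plus strand, are shown because both baits reached these places in every library. Capitals mark the HindIII site.
Btnl3 intron, chr17:34521532-34521591: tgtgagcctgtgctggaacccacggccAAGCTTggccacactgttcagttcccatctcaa
near Trim40, chr17:37018258-37018317: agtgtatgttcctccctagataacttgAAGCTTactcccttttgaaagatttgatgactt
near Trim39, chr17:36395693-36395752: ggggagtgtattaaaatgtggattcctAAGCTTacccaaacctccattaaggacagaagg
near Olfr92, chr17:37259568-37259627: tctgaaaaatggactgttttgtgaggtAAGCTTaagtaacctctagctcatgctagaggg
near Olfr101, chr17:37436232-37436291: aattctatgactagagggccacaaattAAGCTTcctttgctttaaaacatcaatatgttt

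The Btnl3 site had 3, 37, 217 and 186 reads in libraries 1 to 4 of the Kif6 bait, against 1, 17, 45 and 33 reads in those of the distal bait. The Olfr101 site had 9, 7, 14 and 6 reads from the Kif6 bait and 1, 3, 98 and 13 reads from the distal bait. Reads per captured site thus varied over more than an order of magnitude between libraries. Captured sites were used as the measure for that reason, with reads as an alternative.

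The region as a whole was captured slightly less often than its distance from the chromosome 17 baits predicted. The number expected came from a smooth curve of captured share on distance, fitted for each library over chromosome 17. Libraries 1 to 4 of the Kif6 bait captured 515, 529, 540 and 539 sites, against 584, 590, 541 and 550 expected. Those of the distal bait captured 215, 264, 313 and 355, against 255, 298, 357 and 364 expected. All 8 libraries were below the expected number, and libraries 3 and 4 of the Kif6 bait and library 4 of the distal bait were the closest to it.

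As log2 of captured over expected, the region averaged -0.09 ± 0.09 from the Kif6 bait and -0.16 ± 0.09 from the distal bait (SD, n = 4 libraries each). An exact sign-flip test of 4 libraries cannot go below 0.125, two-sided, and gave p = 0.125 for each bait. The difference between the baits was 0.07, and the libraries overlapped (exact permutation test of 4 against 4, two-sided, p = 0.229). Among 20 windows of 4.5 Mb on the chromosome, the region ranked 14 from the Kif6 bait and 17 from the distal bait, counted from the highest. It was thus the most gene-dense window of the chromosome and in the lower part of the ranking from both baits. Those ranks are descriptions of these libraries.

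HindIII sites with no unique end were almost never captured, and their share moved with these values. Of the 1110 sites, 164 or 14.8% had neither 30-base end unique among HindIII ends of the genome, against 11.5% on chromosome 17. The captured sites with a unique end numbered 512, 527, 538 and 536 from the Kif6 bait, against 515, 529, 540 and 539 over all sites. From the distal bait they numbered 214, 264, 313 and 353, against 215, 264, 313 and 355. Ratios and window ranks over all sites thus include sites that were almost never captured. The share of sites without a unique end was 19.8% in the class I subregion and 19.1% in the olfactory receptor part. It was 9 of 150 sites in K and class II and 10 of 156 in class III. Over the 45 bins of 100 kb in the region, Spearman's rho between that share and the median log2 ratio was -0.798 from the Kif6 bait and -0.493 from the distal bait. Neighbouring bins and libraries share sequence, so no p is given. Over sites with a unique end only, the region had log2 ratios of -0.21, -0.14, 0.05 and 0.00 from the Kif6 bait, on both sides of 0. They were -0.19, -0.12, -0.11 and -0.04 from the distal bait, all below it.

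**Figure D1:**
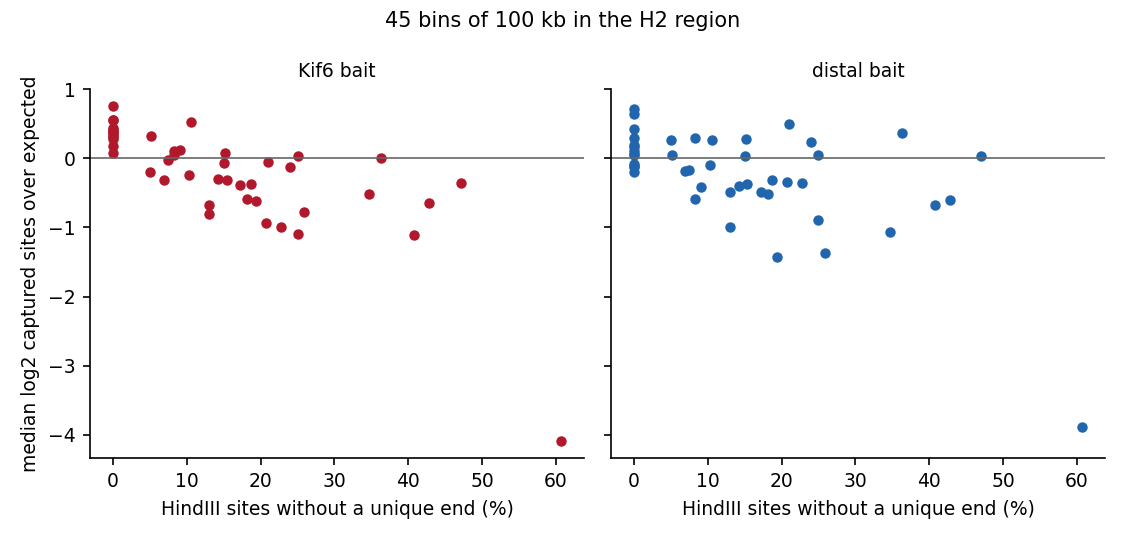
Share of HindIII sites without a unique end (x axis, percent) against the median log2 captured sites over expected of 4 libraries (y axis), 1 point per 100-kb bin of the H2 region, for the Kif6 bait (left) and the distal bait (right). Bins with many such sites sit low, most clearly from the Kif6 bait (Spearman's rho -0.798 and -0.493), and the lowest point in both panels is the bin of H2-Q4, H2-Q6 and H2-Q7.

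The deepest gap of the region was 1 bin within the H2-Q genes, a cluster of non-classical class I genes. The bin at 35500001-35600000, which holds H2-Q4, H2-Q6 and H2-Q7, has 28 sites. From the Kif6 bait 1, 1, 0 and 0 of them were captured, and from the distal bait 0, 0, 1 and 0. In trans, 0 of 25.8 expected captures came from the 31 libraries of the 3 GC-rich chromosome 8 baits and 2 of 37.1 from the 33 libraries of the 3 GC-poor ones. In all 72 libraries together, 26 of the 28 sites were never captured. Of the 28, 17 lacked a unique end, and 9 of the 26 had one. The part of sequence duplication in this gap beyond those counts was not tested. The bins on either side were not as low. The bin with H2-Q2 had median log2 ratios of -0.37 from the Kif6 bait and -0.31 from the distal bait. The bin with H2-Q10 had 0.03 and 0.05.

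Of the other low bins, some held class I genes and others did not. The next lowest from the Kif6 bait was 36400001-36500000, with H2-M10.1 and H2-M10.2, at log2 ratios of -1.41, -1.18, -1.03 and -1.05. There 11 of 27 sites lacked a unique end, and the median was -0.59 over the others, against -1.11 over all. The third was 37700001-37800000, with 6 olfactory receptor genes from Olfr112 to Olfr117, at -1.18, -0.63, -1.01 and -1.22. Its median over sites with a unique end was -0.90. The bin at 36100001-36200000, which holds H2-T22, H2-T23 and H2-T24, was the second lowest from the distal bait, at -1.63, -0.99, -1.60 and -1.26. H2-T23 encodes Qa-1, which presents class I leader peptides. The median there was -1.31 over sites with a unique end.

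Over the list of classical and related class I genes, 11 of 13 were found in the annotation of the region, with 78 sites within 10 kb. The Kif6 bait captured 18, 18, 18 and 21 of these sites, a median log2 ratio of -1.11. The distal bait captured 7, 10, 8 and 10, a median of -1.29. All 8 libraries were below 0, and remained so over the 53 sites with a unique end, with medians of -0.76 and -0.94. The 12 class I genes of the M cluster, among them H2-M3, which presents formylated peptides, had medians of -0.80 from the Kif6 bait and -0.25 from the distal bait over 50 sites. Over their 38 sites with a unique end the medians were -0.63 and -0.07.

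Class II genes did not show such a gap. The 9 genes, with 46 sites, include H2-Aa, H2-Ab1 and H2-Eb1, which encode chains of the presenting molecules, and H2-DMa and H2-DMb1, which exchange their peptides. Libraries of the Kif6 bait captured 22, 24, 26 and 22 of these sites, and the median log2 ratio was -0.08. Those of the distal bait captured 11, 10, 15 and 15, and the median was 0.06. Over their 44 sites with a unique end the medians were -0.20 and -0.07. Of the 5 antigen processing genes, Tap1 and Tap2, which carry peptides into the endoplasmic reticulum, and Psmb8 and Psmb9, immunoproteasome subunits, lie among the class II genes. Tapbp, which loads class I molecules, lies on the other side of H2-K1. The 17 sites near these 5 genes had medians of 0.33 from the Kif6 bait and 0.05 from the distal bait, with libraries on both sides of 0. The medians over the 16 with a unique end were 0.23 and -0.03, so the distal value changed sign.

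**Figure D2:**
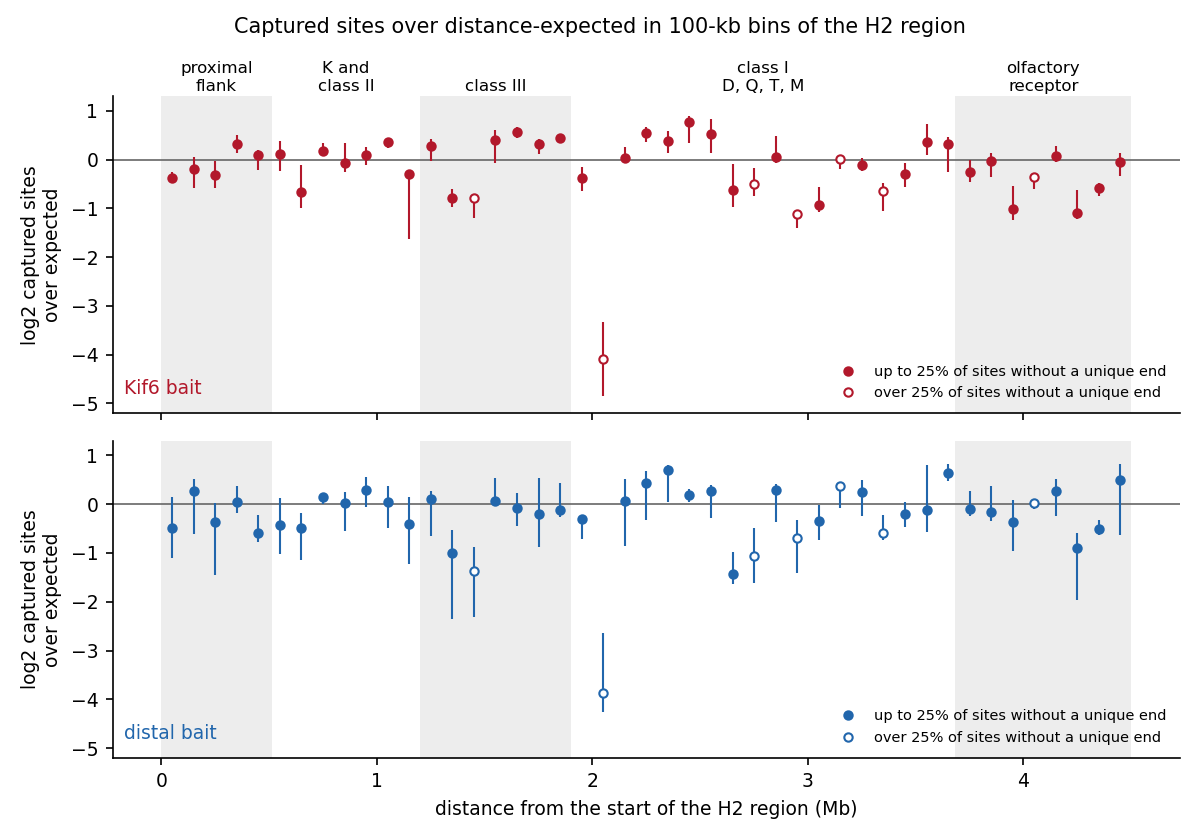
Log2 captured sites over distance-expected (y axis) in 100-kb bins along the H2 region, by distance from its start in Mb (x axis), from the Kif6 bait (top) and the distal bait (bottom). Points are medians and lines the range of 4 libraries, open points are bins with over 25% of sites lacking a unique end, and shading alternates between subregions. The H2-Q bin is lowest in both panels (medians -4.09 and -3.88).

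Class III was the subregion that the 2 baits saw most differently. Libraries 1 to 4 of the Kif6 bait had log2 ratios of -0.01, 0.08, 0.20 and 0.18 there, against -0.24, -0.12, -0.48 and -0.44 in those of the distal bait. Every Kif6 library was above every distal library. Such separation was common, since 34 of 166 bins of 500 kb on the chromosome (20.5%) also showed it in this direction. The means were 0.11 and -0.32, a difference of 0.43. The exact two-sided permutation p was 0.0286, the smallest that 4 against 4 libraries allow, and 0.143 after Benjamini-Hochberg adjustment over the 5 subregions, so the difference did not pass correction. Over the 146 class III sites with a unique end, the medians were 0.03 from the Kif6 bait and -0.43 from the distal bait.

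The genes of class III did not share a level. The list of 11 complement, cytokine and heat shock genes found in the annotation had 44 sites, all with a unique end. The Kif6 bait captured 26, 27, 29 and 31 of them, at log2 ratios of 0.16, 0.20, 0.40 and 0.48. The distal bait captured 8, 13, 14 and 11, at -0.27, 0.18, 0.02 and -0.36. The groups overlapped, since distal library 2 exceeded Kif6 library 1. Against a curve fitted to sites with a unique end, the Kif6 libraries were at -0.08, 0.00, 0.24 and 0.30 and the distal libraries at -0.44, -0.01, -0.14 and -0.57.

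One of the 3 highest bins from the Kif6 bait lay near the distal end of class III. The bin at 35100001-35200000, with Hspa1a and Hspa1l, which encode heat shock proteins, and Msh5, a meiotic recombination gene, had log2 ratios of 0.45, 0.51, 0.61 and 0.66 from the Kif6 bait. From the distal bait it had 0.06, 0.23, -0.21 and -0.45. The bin at 35300001-35400000, which holds the cytokine genes Tnf, Lta and Ltb, had medians of 0.44 from the Kif6 bait and -0.11 from the distal bait. None of the 26 and 22 sites of these bins lacked a unique end.

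Over all sites, most of the other high bins lay beyond class III and held no class I gene, with 1 exception. The highest from the Kif6 bait, at 35900001-36000000, holds Ier3, Flot1, Tubb5 (a tubulin gene), Mdc1 (a DNA damage mediator) and Nrm. Its log2 ratios were 0.34, 0.71, 0.90 and 0.82 from the Kif6 bait and 0.10, 0.29, 0.04 and 0.32 from the distal bait, so all 8 libraries were above 0. The bin at 35700001-35800000, with Vars2, which encodes a mitochondrial tRNA synthetase, and Dpcr1, had 0.36, 0.55, 0.55 and 0.66 from the Kif6 bait and -0.33, 0.25, 0.61 and 0.68 from the distal bait. The highest from the distal bait, at 35800001-35900000, holds the collagen receptor gene Ddr1 and Gtf2h4, a subunit of the transcription factor TFIIH. It had 0.33, 0.14, 0.45 and 0.59 from the Kif6 bait and 0.80, 0.73, 0.05 and 0.69 from the distal bait.

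The exception was the bin at 37100001-37200000, which holds the class I gene H2-M5 beside Zfp57, the myelin gene Mog and Gabbr1. It had log2 ratios of -0.26, 0.34, 0.29 and 0.47 from the Kif6 bait and 0.73, 0.55, 0.47 and 0.82 from the distal bait. The last of the high bins, at 37900001-38000000, holds olfactory receptor genes from Olfr122 to Olfr126. It had 0.02, 0.14, -0.12 and -0.33 from the Kif6 bait and -0.63, 0.29, 0.82 and 0.70 from the distal bait, the wider spread. Restricted to sites with a unique end, the 3 bins highest from the Kif6 bait had medians of 0.57, 0.38 and 0.36 there. The 3 highest from the distal bait had 0.52, 0.48 and 0.63. These bins were picked over all sites. Under the restriction the highest from the distal bait was 36600001-36700000, with the class I gene H2-M11, at 0.80, 0.79, 0.89 and 0.33. Its median from the Kif6 bait was 0.29, and 8 of its 22 sites lacked a unique end.

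The middle of class III was low from both baits. The bin at 34900001-35000000, with the complement genes C2 and Cfb and the steroid hydroxylase gene Cyp21a1, had log2 ratios of -1.19, -0.82, -0.72 and -0.74 from the Kif6 bait. It had -0.87, -2.31, -1.35 and -1.39 from the distal bait, on counts of 3, 1, 3 and 3 of 27 sites. The neighbouring bin at 34800001-34900000, with Tnxb and the complement gene C4b, had -0.97, -0.60, -0.89 and -0.70 from the Kif6 bait and -1.14, -0.87, -2.35 and -0.52 from the distal bait. Over sites with a unique end, the medians were -0.54 and -1.15 in the first bin and -0.77 and -0.99 in the second. Of the 27 sites of the first bin, 13 were captured in none of the 72 libraries, 7 of them with a unique end.

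The 500-kb bins were tested in 1 model over chromosome 17, edgeR's quasi-likelihood test with the number expected in each library as offset. Between the baits, 28 of 166 bins (16.9%) were higher from the Kif6 bait and 8 (4.82%) lower at an adjusted p under 0.05. None of the 9 bins of the region was among them, 1 had an unadjusted p under 0.05, and DESeq2 also called 0 of the 9. The nearest was 35000001-35500000, the distal end of class III, at a difference of 0.38 ± 0.13 (SE) and an adjusted p of 0.0531. Its libraries did not overlap (Kif6 bait 0.22, 0.18, 0.33 and 0.31, distal bait 0.04, 0.13, -0.26 and -0.35). Of all 166 bins, 20.5% were likewise separate with the Kif6 bait higher, and 9.64% with the Kif6 bait lower, against 1 and 0 of the 9 bins in the region. The adjusted p of this bin ran from 0.0188 to 0.252 over the alternatives run on it, and it was under the threshold with trimmed-mean (TMM) factors, in reads (0.0412), without Kif6 library 1 (0.0447) and without distal library 2 (0.0318).

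Against the number expected, bins of either direction were common along the whole chromosome. From the Kif6 bait, 50 of 166 bins (30.1%) were above and 46 (27.7%) below by the same test, and in the region 1 bin was above and 4 were below. From the distal bait, 17 (10.2%) were above and 24 (14.5%) below, and in the region 0 were above and 2 below. The shares in the region rest on 9 bins and are given beside those of the chromosome without a test.

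Among the 9 bins, only 34500001-35000000 passed in the same direction from both baits and under the restriction to sites with a unique end. It runs from Btnl3 through the butyrophilin-like genes and Notch4 to C2. The Kif6 bait captured 45, 52, 49 and 43 of its 107 sites, at log2 ratios of -0.33, -0.14, -0.14 and -0.34. The distal bait captured 12, 18, 24 and 28, at -0.92, -0.59, -0.46 and -0.29. The fitted values were -0.24 ± 0.09 (SE, adjusted p = 0.0372) and -0.53 ± 0.13 (SE, adjusted p = 0.00812) by edgeR, and -0.26 (adjusted p = 0.0302) and -0.55 (adjusted p = 0.0148) over sites with a unique end. Counted in reads, neither passed (adjusted p = 0.0664 and 0.0619). The Kif6 value also lost its call when any 1 of the 4 Kif6 libraries, or distal library 2 or 3, was left out, with adjusted p up to 0.126, and with TMM factors (0.0786).

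The other bins that passed did so over all sites and not over those with a unique end. The bin 35000001-35500000 was above the expected number from the Kif6 bait, at 0.26 ± 0.08 (SE, adjusted p = 0.00925, edgeR), and at 0.13 (adjusted p = 0.202) over sites with a unique end. The bin 36000001-36500000, with the H2-T genes, was below from the Kif6 bait at -0.27 (adjusted p = 0.0327) and from the distal bait at -0.53 (adjusted p = 0.00987). Over sites with a unique end it stood at -0.12 and -0.34, with adjusted p of 0.397 and 0.171. The Kif6 call was also lost without Kif6 library 1 (0.115) or 2 (0.153), and the distal call without distal library 3 (0.0838), all by edgeR. The bins 36500001-37000000, with H2-M genes, and 37500001-38000000, with olfactory receptors, were below from the Kif6 bait at -0.39 and -0.37 (adjusted p = 0.000902 and 0.00514). Over sites with a unique end they stood at -0.24 and -0.22 (adjusted p = 0.0573 and 0.0958). Counted in reads, the Kif6 calls of 35000001-35500000 (adjusted p = 0.344), 36000001-36500000 (0.306) and 36500001-37000000 (0.361) and the distal call of 36000001-36500000 (0.129) were also lost, and that of 37500001-38000000 was not (0.0395). The first bin of the region and those at 34000001, 35500001 and 37000001 passed from neither bait, with values of -0.04, -0.02, 0.10 and -0.05 from the Kif6 bait and -0.19, -0.09, -0.02 and 0.11 from the distal bait.

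The olfactory receptor part was low from the Kif6 bait and variable from the distal bait. Log2 ratios were -0.29, -0.35, -0.34 and -0.32 from the Kif6 bait, the narrowest range of any subregion, and -0.44, -0.17, -0.03 and 0.21 from the distal bait. The groups overlapped through distal library 1, and the difference of -0.22 had an exact permutation p of 0.171 (adjusted p = 0.286). Near the 33 olfactory receptor genes, 61, 59, 50 and 53 of 147 sites were captured from the Kif6 bait and 28, 37, 48 and 55 from the distal bait. The medians were -0.38 and -0.14, or -0.32 and -0.01 over sites with a unique end.

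The class I D, Q, T and M subregion, the largest, had log2 ratios of -0.27, -0.23, -0.04 and 0.00 from the Kif6 bait and -0.24, -0.14, -0.24 and -0.03 from the distal bait. The groups overlapped, and the means differed by 0.03, less than the spread between libraries. Against the rest of the region it stood at -0.03 ± 0.08 (SD, n = 8) and above 0 in 4 of 8 libraries (exact sign-flip p = 0.289). The proximal flank had log2 ratios of -0.11, -0.07, 0.01 and -0.07 from the Kif6 bait and -0.19, -0.50, -0.18 and -0.03 from the distal bait. The K and class II subregion had -0.06, -0.06, 0.23 and 0.02 from the Kif6 bait and -0.03, -0.06, -0.03 and -0.11 from the distal bait. It exceeded the rest of the region by 0.13 ± 0.11 (SD, n = 8) and in 7 of 8 libraries, with an exact two-sided sign-flip p of 0.0234 that became 0.117 over 5 subregions. Over sites with a unique end that value was -0.02, and in reads it was -0.08.

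**Figure D3:**
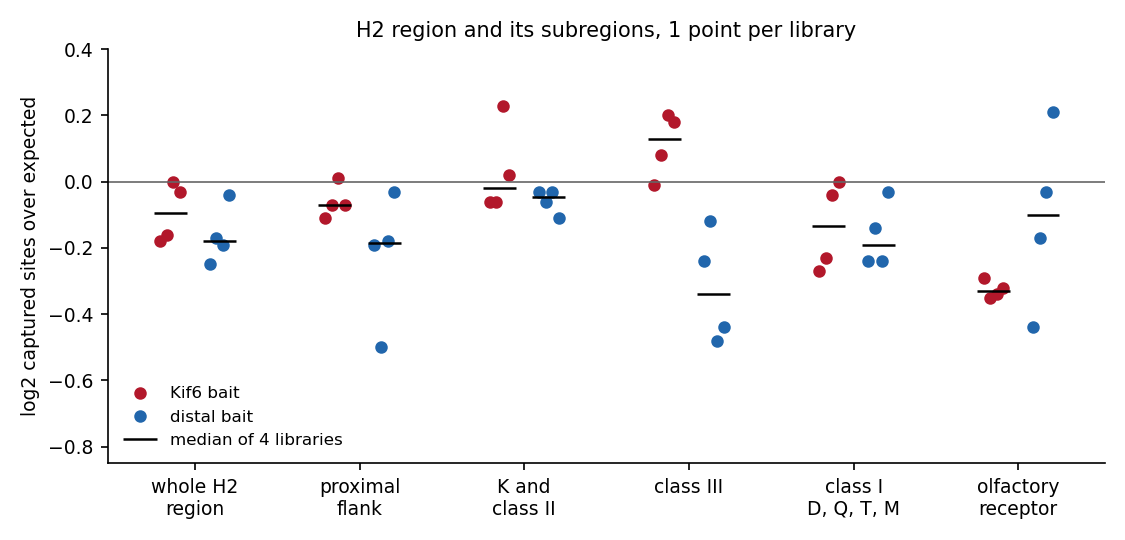
Log2 captured sites over distance-expected (y axis) for the whole H2 region and its subregions (x axis), with 1 point per library of the Kif6 bait (left of each pair) and of the distal bait (right) and a bar at the median of 4. Class III is the subregion whose Kif6 libraries (-0.01 to 0.20) all lie above its distal libraries (-0.48 to -0.12). Of the 500-kb bins of chromosome 17, 20.5% were likewise separate.

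In trans, from another chromosome, the region was captured more often than the average site outside chromosome 8. The 3 baits with most GC in the 500 kb around them were B87 (49.3%), B26 and B118 (43.5%), called GC-rich, and the other 3 were B44 (40.6%), B7 (37.1%) and B53 (35.9%), called GC-poor. The captured share of the region was set over the share of all sites outside chromosome 8, per library. As log2, this ratio averaged 0.88 ± 0.31 from B87 (SD, n = 10), 0.70 ± 0.26 from B26 (n = 11) and 0.28 ± 0.18 from B118 (n = 10). It averaged 0.10 ± 0.26 from B44, 0.37 ± 0.24 from B7 and 0.42 ± 0.32 from B53 (n = 11 each).

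The mean over the 6 baits was 0.46 ± 0.28 (SD, n = 6), above 0 for 6 of 6 baits. The exact two-sided sign-flip p was 0.0312, the smallest that 6 baits allow. The baits share sample titles and so possibly cultures, which this test and the others over baits do not take into account. All 10 libraries of B87 and all 11 of B26 were above 0, as were 9 of 10 from B118, 7 of 11 from B44, 10 of 11 from B7 and 9 of 11 from B53. The counts were small: from B87 the libraries captured 7 to 183 of the 1110 sites each.

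The rest of chromosome 17 stood as high. Its log2 ratio averaged 0.52, 0.49 and 0.46 from B87, B26 and B118, and 0.32, 0.49 and 0.47 from B44, B7 and B53. Set against the rest of chromosome 17, a comparison chosen after seeing the data, the region averaged 0.01 over the 6 baits (exact sign-flip p = 0.906). It was above the chromosome from B87 (0.37 ± 0.31, 9 of 10 libraries) and B26 (0.23 ± 0.28, 8 of 11 libraries). It was below it from B118 (-0.17 ± 0.17, SD), B44 (-0.21 ± 0.24), B7 (-0.11 ± 0.27) and B53 (-0.05 ± 0.33). How many copies of chromosome 17 the line carries was not measured here, and the level of the whole chromosome cannot be told apart from it in these counts.

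Other gene-dense windows gave a second comparison. Of 553 windows of 4.5 Mb outside chromosome 8, the region ranked 26 from B87, 25 from B26, 127 from B118, 193 from B44, 81 from B7 and 55 from B53. Among the 34 autosomal windows with at least 100 protein-coding genes it ranked 13, 8, 15, 18, 9 and 5 from the same baits. The medians of those windows were 0.47, 0.30 and 0.13 from the GC-rich baits and 0.12, 0.08 and 0.02 from the GC-poor ones. The region thus lay above the median gene-dense window from 5 of 6 baits and just below it from B44. This comparison did not remove the level of chromosome 17 as a whole, which was above 0 from each bait. Over the rest of its own chromosome, the region stood at 0.37, 0.23, -0.17, -0.21, -0.11 and -0.05 from the same baits. Each is below the median of the gene-dense windows, which were not set over their own chromosomes.

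**Figure D4:**
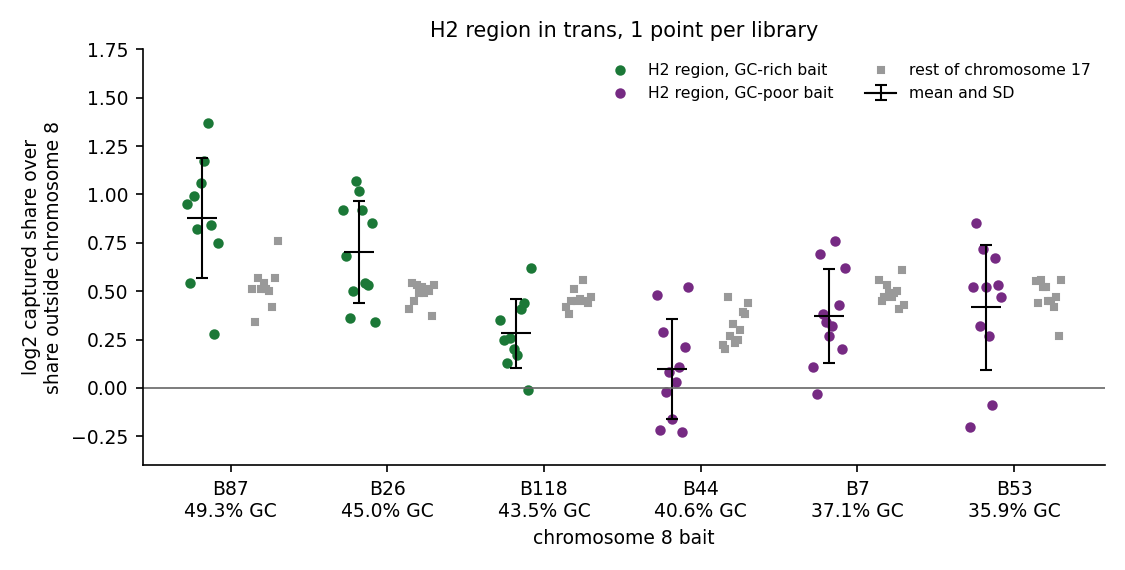
Log2 captured share of the H2 region over the share of all sites outside chromosome 8 (y axis) for 6 chromosome 8 baits (x axis, with GC content around each), 1 point per library, with the mean and SD, and gray squares for the rest of chromosome 17. The means of B87 and B26 (0.88 and 0.70) lie above those of the rest of the chromosome (0.52 and 0.49), and those of the other 4 baits do not.

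The difference between GC-rich and GC-poor baits over the whole region did not pass the test. Means were 0.62 over the GC-rich baits and 0.30 over the GC-poor baits, a difference of 0.32 (exact permutation test of 3 against 3, two-sided, p = 0.3). This design cannot give a p below 0.1. The SD between baits within a class was 0.24, and the values of the classes overlapped, since B118 (0.28) lay below B7 (0.37) and B53 (0.42).

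The K and class II subregion separated the bait classes most. Its log2 ratio averaged 1.06 ± 0.59 from B87, 1.10 ± 0.54 from B26 and 0.62 ± 0.36 from B118, against 0.04 ± 0.49 from B44, 0.18 ± 0.76 from B7 and 0.02 ± 0.70 from B53 (SD over libraries). All 3 GC-rich baits were above all 3 GC-poor ones, with class means of 0.92 and 0.08, a difference of 0.85. The exact permutation p was 0.1, the smallest possible, and 0.333 over the 5 subregions. Over 500-kb bins genome-wide, 10.8% were likewise separate with the GC-rich baits higher, and in the region 2 of 9 were.

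Class III followed with class means of 0.82 and 0.17, a difference of 0.65 (exact permutation p = 0.200). Summed over the libraries of a bait, class III had log2 ratios of 1.71 from B87, 1.2 from B26 and 0.49 from B118, against 0.25 from B44, 0.11 from B7 and 0.65 from B53. The B53 value exceeded the B118 value, so the classes overlapped. The complement, cytokine and heat shock list had 49, 36 and 26 summed captures from B87, B26 and B118, and 47, 15 and 17 from B44, B7 and B53. Their summed log2 ratios were 2.03, 1.46 and 0.68 from the GC-rich baits and 0.39, 0.47 and 0.50 from the GC-poor ones. As means over libraries they were 0.97, 0.75 and 0.04 from the GC-rich baits and 0.26, 0.19 and 0.03 from the GC-poor ones, and B118 then lay below B44 and B7. The proximal flank was above 0 from all 6 baits when summed, from 0.22 (B44) to 1.34 (B87).

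Antigen processing genes showed the widest range of summed values among the lists. Their 17 sites were captured 26, 21 and 7 times from B87, B26 and B118, and 14, 9 and 2 times from B44, B7 and B53. Summed, the log2 ratios were 2.41, 1.98 and 0.16 from the GC-rich baits and 0.02, 1.03 and -1.02 from the GC-poor ones. As means over libraries they were 1.34, 0.68 and -0.18 from the GC-rich baits and -0.17, -0.04 and -0.52 from the GC-poor ones. The signs of B118, B44 and B7 thus depended on the summing, and 3 of 11 libraries of B7 were above 0. Class II genes had 1.01, 1.14 and 0.95 from the GC-rich baits and 0.45, 0.21 and 0.60 from the GC-poor ones. These summed values rest on 13 to 51 captures over 46 sites. As means over libraries they were 0.58, 0.75 and 0.34 from the GC-rich baits and 0.10, -0.10 and 0.18 from the GC-poor ones. B7 was thus positive only when its libraries were summed.

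The class I genes were low in trans from 4 of the 6 baits or from all 6, depending on the list and the summing. The classical and related list had summed log2 ratios of 0.38, 0.02 and -1.21 from B87, B26 and B118, and -0.69, -1.83 and -0.78 from B44, B7 and B53. As means over libraries they were -0.09, -0.31 and -1.11, and -0.65, -1.36 and -0.96. The M cluster had summed values of -0.69, -0.82 and -0.28, and -0.74, -0.02 and -0.05, and its means were also below 0 from all 6 baits. For the classical and related list, single libraries varied. From B87, 7 of 10 libraries were above 0, and none were from B118, B44 or B7. The B7 value rests on 5 captures in 11 libraries. Of the 78 sites of this list 25 lacked a unique end, as did 12 of the 50 of the M cluster. These trans values include them. The whole class I D, Q, T and M subregion was lower than the rest of the region by -0.26 ± 0.17 (SD, n = 6 baits, log2), in 6 of 6 baits. The exact sign-flip p was 0.0312, the smallest possible, and 0.156 over 5 subregions. In this subregion 90 of 455 sites lacked a unique end. Over the others, summed, it had 1.01, 0.73 and 0.16 from B87, B26 and B118, and 0.03, 0.41 and 0.37 from B44, B7 and B53. The whole region then had 1.11, 0.82 and 0.30, and 0.04, 0.41 and 0.47. From B44 and B7 the subregion was thus about level with the whole region.

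The olfactory receptor part had the lowest mean over the 6 baits of any subregion against the rest of the region. Its mean log2 ratios were -0.35 ± 0.68 from B87, -0.23 ± 0.75 from B26 and 0.05 ± 0.47 from B118, against -0.20 ± 0.34 from B44, 0.12 ± 0.70 from B7 and 0.42 ± 0.43 from B53. It was lower than the rest of the region by -0.55 ± 0.55 (SD, n = 6), in 5 of 6 baits (exact p = 0.0625, adjusted p = 0.156). GC-rich baits averaged -0.18 and GC-poor baits 0.11 there, the only subregion in which the GC-rich mean was the lower one (difference -0.29, exact permutation p = 0.200).

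**Figure D5:**
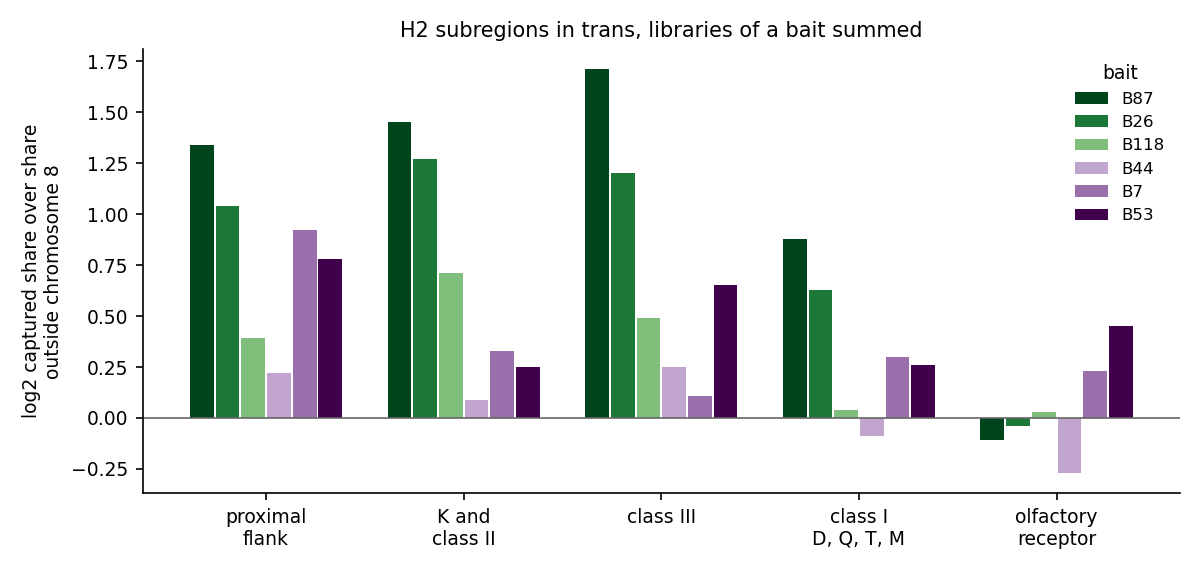
Log2 captured share over the share outside chromosome 8 (y axis) for the 5 subregions of the H2 region (x axis), 1 bar per chromosome 8 bait from the GC-rich B87, B26 and B118 to the GC-poor B44, B7 and B53, with the libraries of a bait summed. K and class II shows all GC-rich bars (0.71 to 1.45) above all GC-poor bars (0.09 to 0.33), and the olfactory receptor part lies between -0.27 and 0.45.

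Tested bin by bin, no contrast of GC-rich and GC-poor baits passed. Of 4755 bins of 500 kb outside chromosome 8, 0 (0%) were higher and 0 (0%) lower at an adjusted p under 0.05 by edgeR, with 836 at an unadjusted p under 0.05. DESeq2 also called 0, with 576 unadjusted. In the region, the bins from 34000001 to 36500000 were higher from GC-rich baits by 1.03, 0.94, 0.87, 0.83 and 0.64 (log2, edgeR), with adjusted p of 0.0734, 0.0901, 0.143, 0.107 and 0.205. The bins at 36500001, 37000001 and 37500001 had differences of -0.14, 0.03 and -0.19. The first bin of the region had a difference of 0.38 (adjusted p = 0.459). The 5 bins with the largest differences hold the class II and class III genes, the D, Q and T class I genes, H2-M10.1 and H2-M10.2. The last 3 bins hold the rest of the M cluster and the olfactory receptors. Without bait B118, 341 of 4761 bins passed, 288 of them higher, and those included 5 of the 9 bins of the region. Leaving out any other bait gave 0 bins.

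The 2 bins that hold class III were in the same order from all 6 chromosome 8 baits. The bin 34500001-35000000, below the expected number from both chromosome 17 baits, was captured 66, 52 and 46 times from B87, B26 and B118, and 83, 19 and 29 times from B44, B7 and B53. Its log2 ratios were 1.24, 0.76 and 0.25 from the GC-rich baits and -0.05, -0.42 and 0.03 from the GC-poor ones. The bin 35000001-35500000 had 1.89, 1.3 and 0.51 from the GC-rich baits and 0.34, 0.26 and 0.90 from the GC-poor ones. From each of the 6 baits the second bin was higher than the first. The same order held in 7 of the 8 chromosome 17 libraries, and distal library 4 had -0.29 in the first bin and -0.35 in the second. In the first bin 12 of 107 sites lacked a unique end, against 6 of 122 in the second. All baits share these sites, and whether the sites themselves set the order was not tested.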

How the data were processed

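The deposited table holds read counts per HindIII site. The aligner BWA 0.5.9 and the mm9 build are named per the submitters' processing notes, and read filters are not given in the sources used here. All 823352 positions matched AAGCTT in mm9. Genes are from GENCODE vM1 on the same build. Counts were used as deposited, with technical replicates of a chromosome 8 bait summed.

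The expected number was a lowess curve (span 0.5) of log2 captured share in 500-kb bins on log10 distance, beyond 2 Mb of the bait, scaled to the library's total. Log2 ratios used a pseudocount of 0.5. Genomic bins came from edgeR 4.0.16 (quasi-likelihood, filterByExpr, bins with at least 20 sites), with DESeq2 1.42.0 as an alternative, in R 4.3.3. The remaining values came from Python 3.11.15 with statsmodels 0.14.6 and scipy 1.17.1. Region values were tested by exact sign-flip or permutation tests over libraries or baits, two-sided, with Benjamini-Hochberg adjustment over subregions. The tests were tried on simulated data. With a fixed dispersion, edgeR called 45.0% of 1.5-fold and 100% of 2-fold changes between the chromosome 17 baits. For GC-rich against GC-poor baits in trans it called 29.0% and 75.0%. Bins not called may therefore hold differences of 1.5-fold, or of 2-fold in trans.

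Libraries are separate samples in the labels, and nothing says that all came from separate cultures, so p-values measure the spread between these samples. Reads without molecular identifiers are not independent molecules. Subregions, lists, GC classes and alternatives were chosen with earlier results of these data known. The text names anchor genes, all 500-kb bins tested, the 3 highest and 3 lowest 100-kb bins per chromosome 17 bait and the 8 most often captured sites. Other bins and genes named beside them were chosen after their values were seen, as was the restriction of bins and lists to sites with a unique end.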

Additional observations from a re-analysis of the deposited data

Results flagged for a closer look

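Of 61 groups of 4 to 10 values examined with Dixon's ratio, 2 held a value far from the rest, and chance flags about 1 in 20 groups. In class III in trans, 1 library of B118 had a log2 ratio of -2.04, against -0.07 for the nearest of the other 9 libraries. It captured 0 of the 156 class III sites, so its value is set by the pseudocount. For the rest of chromosome 17 in trans, B44 had a mean log2 ratio of 0.32, against 0.46 for the nearest of the other 5 baits.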

How the results depend on the processing

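Values of the region from either chromosome 17 bait stayed below 0 under every alternative run, from -0.20 to -0.07 (Kif6 bait) and from -0.31 to -0.12 (distal bait), and counting reads gave the lowest, -0.20 and -0.31. Leaving out 1 library gave -0.12 to -0.06 and -0.20 to -0.13. The class III difference between the baits ran from 0.38 to 0.91. In reads, subregions against the rest of the region reversed from the chromosome 17 baits for K and class II (-0.08), class III (-0.21), class I (0.07) and the olfactory receptor part (0.06), and in trans for the proximal flank (-0.46), K and class II (-0.38) and class III (-0.59). Over sites with a unique end, K and class II (-0.02), class III (-0.12) and class I (0.10) reversed from the chromosome 17 baits, as did K and class II (-0.05) and class III (-0.07) in trans. At 2 reads or more, class III gave -0.02. Leaving out 1 library at a time, these contrasts ran from -0.03 to 0.03 for the proximal flank and from -0.01 to 0.10 for class III. Leaving out 1 bait, K and class II in trans ran from 0.00 to 0.19. The difference between the baits in the class I subregion, 0.03, was -0.01 at 2 reads or more, 0.00 over sites with a unique end and as rates for repeated capture, and -0.02 to 0.07 without 1 library; each is under the spread between libraries. In trans, the region lost its call when libraries were summed (0.48), when set against the rest of chromosome 17 (0.01) and without any 1 bait (0.37, 0.41, 0.47, 0.48, 0.49 and 0.53), where 5 baits cannot reach 0.05. Bins called between the chromosome 17 baits numbered 36, against 20 with DESeq2 and 22 to 44 without 1 library. The 22 came without distal library 3. Against the number expected, 96 were called from the Kif6 bait, against 155 in 250-kb bins and 80 to 100 without 1 library. From the distal bait 41 were called, against 12 in reads, 13 over sites with a unique end and 22 to 44 without 1 library, with 22 without distal library 4 and 27 without distal library 3. In trans 0 to 341 bins were called without 1 bait. Rates for repeated capture, the rest of chromosome 17, autosomes, the 50% sharing limit and bins over sites with a unique end were alternatives chosen after seeing the data. Causes of these shifts were not tested. No paired analysis was possible because, on chromosome 17, the libraries of both baits carry titles of other baits, so their replicate numbers pair no samples. The chromosome 8 baits share sample titles, and so possibly cultures. A block over those titles, which include the sampling times not used here, was not run, and the tests over baits do not take the sharing into account. Depth limits the subregions in trans most: some libraries captured 0 or 1 of their sites.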
